A study of Drosophila melanogaster with 8 samples.

Results

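RNA polymerase II (RNAPII) occupancy was examined at 9 genes that lie in the pericentric heterochromatin of Drosophila melanogaster: lt, rl, cta, Nipped-A, Nipped-B, p120ctn, Dbp80, Parp and Stlk. Every entry of the authors' deposited table of RNAPII sites whose nearest gene was 1 of the 9 was used, which gave 72 of 14357 entries. The assay was ChIP-seq, the sequencing of DNA that precipitates with RNAPII from fixed chromatin. The cells were S2, a line derived from fly embryos with features of hemocytes, the blood cells of the fly. Cells with knockdown of the linker histone H1 (KD H1) were compared with LacZ cells, the control, LacZ being a bacterial gene that flies lack. Each condition had 2 RNAPII precipitations and 2 input libraries, labelled as 10% input. The labels do not give the reagent or duration of the knockdown, nor whether the replicate libraries stand for independent cultures. Any p given by the authors therefore reflects how far these particular libraries scatter, which may be technical.

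Pericentric heterochromatin is dense in transposons and satellites and is packaged with H3K9-methylated nucleosomes, HP1a and linker histone H1, which binds DNA where it enters and leaves the nucleosome. A limited set of protein-coding genes nevertheless works there, many of them with long introns filled by transposon copies. In flies, lt and rl are the classical examples of genes that need a heterochromatic surrounding and lose expression when a rearrangement moves them next to euchromatin. The members are called essential as a group; mutants of p120ctn are known to be viable in flies, and essentiality was not measured here.

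The deposited values are 1 log2 mean concentration (normalised reads over a site) per condition, with no value per library, so no spread between replicates could be given and the depth of the libraries is unknown. A fold here is the log2 concentration in H1 knockdown minus that in LacZ cells. Of 10 marker genes of S2 cells, 7 had an RNAPII site within 1000 bp of a transcription start site (TSS). These included the hemocyte genes srp, ush, Hml and Pxn, and the 7 had folds from -0.02 to 0.14. Nplp2, NimC1 and Sr-CI of the same list had no such site. Of 13 markers of neurons, muscle, germ line, crystal cells and fat body, 2 had such a site, elav with folds of 0.10 to 0.13 and bam with 0.12 to 0.17. The copies of the targeted gene, His1, had 16 entries within 1000 bp of a TSS. All 16 had a fold above 0, as did 92.9% of all such entries in the table. Their median was 0.365, against 0.15 for all such entries. By the authors' DiffBind test, 8 of the 16 were higher at an unadjusted p under 0.05, where 4.99% of all such entries were. These values do not measure the histone itself. More polymerase per cell and more cells carrying polymerase cannot be told apart in bulk chromatin.

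Mean concentrations after H1 knockdown were higher near start sites and mostly slightly lower at transposon copies. This held at the 9 genes as over the whole table, and no entry passed an adjusted threshold. How the libraries were scaled is not given, so a fold of 0 is no fixed reference. The median fold of all entries was 0.08. Within 1000 bp of a TSS, 8 of the 9 genes had a site. All 15 entries there had a fold above 0, from 0.13 at Stlk to 0.60 at lt, with a median of 0.32. The entries of lt and Stlk were peaks of the knockdown list only, and entry by that list alone favours a fold above 0. The others, at loci with peaks of both lists, ran from 0.20 at Nipped-A to 0.42 at rl and p120ctn. Of all 8198 entries near a TSS, 92.9% had a fold above 0 and their median was 0.15, so the direction is that of start sites in general. The 43 entries at repeats had a median of -0.05, with 13 above 0 (30.2%), 1 at 0 and 29 below, where 29.9% of all repeat entries were above 0. Parp was the 1 gene with no entry near its TSS. No member passed a false discovery rate (FDR) of 0.05 by the authors' DiffBind test, and 0% of all 14357 entries did; the lowest FDR of a member was 0.835, at lt, and the other 71 entries had an FDR of 1. The authors' own calls mark entries with an unadjusted p under 0.05.

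By those unadjusted calls 11 of the 72 entries were called higher after H1 knockdown, where 3.99% of all entries were. A single member entry was called lower, where 0.0557% of all entries were. Most sites are listed as 1 peak of each condition's list, so the 11 entries were 6 separate loci of the 41 that overlapping entries formed, where 5.09% of all merged loci were called higher. These loci lay at the start sites of lt, rl, Nipped-B and p120ctn, in an intron of Stlk and 14.1 kb from the TSS of cta. In the plot of folds by gene, a start site is the highest point of 6 of the 8 genes that have one, cta and Stlk being the exceptions.

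**Figure D1:**
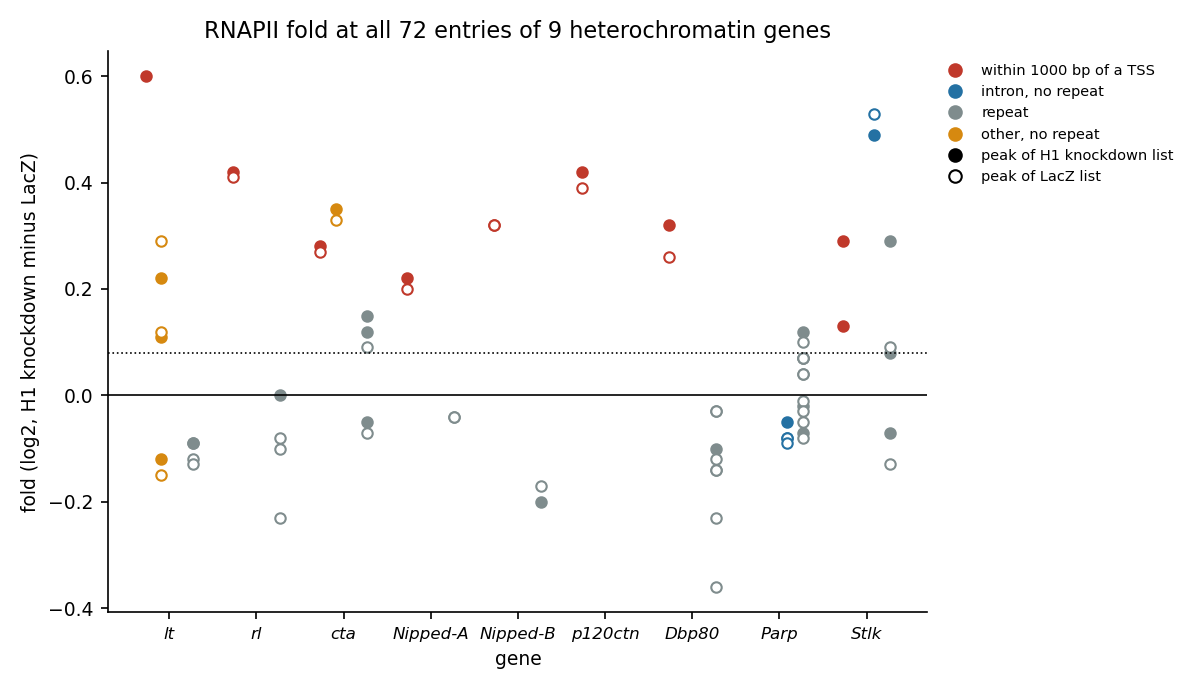
Fold in RNAPII concentration (log2, H1 knockdown minus LacZ, y axis) at each of the 72 entries of the 9 genes (x axis), coloured by kind of site; filled points are peaks of the H1 knockdown list, open points peaks of the LacZ list, and the dotted line is the median of all entries, 0.08. The red points within 1000 bp of a TSS lie between 0.13 and 0.60, and the grey repeat points between -0.36 and 0.29.

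Among genes of signalling, rolled (rl) encodes the MAP kinase ERK, which relays receptor tyrosine kinase signals. At its start site (dm3 2RHet, 198530 to 199181) the authors' deposited table gave a mean log2 concentration of 8.11 in LacZ cells and 8.54 in knockdown cells. The fold was 0.42, or 1.34-fold, in the authors' deposited table (unadjusted p = 0.0217, FDR 1). The narrower LacZ peak at the same place gave 0.41. Its annotation names the promoter of a noncoding RNA, lncRNA:CR41257, which neighbours rl, so these reads may belong to either gene. The 3 other rl loci, all repeats in introns 4 and 5, 27.5 to 39.3 kb from the TSS, had folds from -0.23 to 0.00 in the authors' deposited table.

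Concertina (cta) encodes the G protein alpha subunit that drives apical constriction during gastrulation. Its start site lay in exon 1 of 6 (2L, 22874546 to 22875447), with concentrations of 8.96 in LacZ and 9.24 in knockdown cells and a fold of 0.28 in the authors' deposited table (p = 0.110). A wider site 14.1 kb from the TSS (2L, 22887138 to 22890257), annotated between genes and without a repeat, had a fold of 0.35 in the authors' deposited table (10.24 against 10.58, p = 0.0241, FDR 1). The repeats upstream of cta went both ways. An internal HMSBEAGLE copy centred 4.71 kb upstream had 0.12 and a MDG3 long terminal repeat 12.6 kb upstream had 0.15, and a DOC copy 24.7 kb upstream had -0.05, in the authors' deposited table.

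Stlk encodes a Ste20-like kinase. Its start region carried a pair of weak sites that were peaks of the knockdown list only, at 136 bp in exon 1 of 4 (2R, 434183 to 434482) and at 750 bp in intron 1 of 3 (434776 to 435117). Both had a concentration of 6.93 in LacZ cells, with 7.07 and 7.23 in knockdown cells and folds of 0.13 and 0.29 in the authors' deposited table (p = 0.560 and 0.207). The larger difference lay further inside the same intron, 4.96 kb from the TSS (438497 to 439820). There the authors' deposited table gave 8.73 in LacZ and 9.22 in knockdown cells, a fold of 0.49 (p = 0.00431, FDR 1). The LacZ peak at this place spanned 532 bp in place of 1324 bp and gave 0.53. An OSVALDO copy 2102 bp upstream of Stlk had the highest fold of any member repeat, 0.29 in the authors' deposited table (p = 0.136).

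Of the chromatin genes, Nipped-A encodes the Tra1/TRRAP subunit of the SAGA and Tip60 acetyltransferase complexes. Its promoter (2R, 1138135 to 1138769) had 8.65 in LacZ and 8.87 in knockdown cells, with a fold of 0.22 in the authors' deposited table (p = 0.210). Its only other locus was a Copia copy in intron 4 of 19, 30.7 kb from the TSS and 5152 bp wide. The authors' deposited table gave that copy 11.63 in LacZ and 11.59 in knockdown cells, a fold of -0.04 (p = 0.747). Per kb of site, the log2 concentration in LacZ cells was 9.26 on the Copia copy and 9.31 at the promoter. By this average over the site the copy was wide and not denser in reads. The authors' fold enrichment over input was higher on the copy, 30.1 against 12.7 at the promoter in the knockdown list's peaks. In the LacZ list's peaks it was 19.8 against 8.65.

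Nipped-B encodes the loader that places cohesin on chromosomes. Its start site was a broad one of 2207 bp centred 718 bp upstream of the TSS (2R, 616137 to 618343), with 10.13 in LacZ and 10.44 in knockdown cells in the authors' deposited table. The fold was 0.32, or 1.25-fold, in both lists' peaks in the authors' deposited table (p = 0.0466 and 0.0445, FDR 1). Only 3995 bp into the gene, a BURDOCK copy in intron 6 of 21 (612289 to 612766) had -0.20 and, in the LacZ list's peak, -0.17 in the authors' deposited table (p = 0.346 and 0.412).

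Parp encodes poly(ADP-ribose) polymerase, which modifies chromatin proteins and is active at damaged DNA and at induced loci in flies. With 17 entries it had the most of the 9 genes, and the closest to its TSS was 16.2 kb away, in intron 3 of 5. The 4 intron entries without a repeat had folds from -0.09 to -0.05 and its 13 repeat entries from -0.08 to 0.12, and none was called in the authors' deposited table. In intron 4 of 5 a stretch of MDG1 internal sequence of 4904 bp lay between a pair of MDG1 long terminal repeats. The terminal repeats had folds of 0.12 and 0.07 and the internal part -0.07 in the authors' deposited table. For comparison, 73 MDG1 terminal repeat entries elsewhere had a median of 0.05, and 199 internal entries one of -0.06.

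Of the remaining genes, light (lt) encodes the Vps41 subunit of the HOPS complex, which tethers vesicles to the lysosome and to pigment granules. Its start site (exon 2 of 12, 2L, 22817480 to 22818081) had 7.64 in LacZ and 8.24 in knockdown cells, and a fold of 0.60, or 1.52-fold, the highest of the 72 entries in the authors' deposited table (p = 0.00203, FDR 0.835). It was a peak of the knockdown list only. A site without a repeat 3.33 kb upstream had 0.22 and another 31.1 kb upstream 0.11, whereas the one at the transcription termination site, 19.0 kb downstream, had -0.12 in the authors' deposited table. A ROO copy 9.27 kb upstream and a DOC copy in intron 6 of 11 each had -0.09 in the knockdown list's peak in the authors' deposited table.

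The gene p120ctn encodes p120 catenin, which binds the cytoplasmic tail of cadherin at adherens junctions. It had a single locus, its promoter (2R, 482609 to 483135), with 7.99 in LacZ and 8.42 in knockdown cells in the authors' deposited table. The fold was 0.42 in the knockdown list's peak and 0.39 in the LacZ list's peak in the authors' deposited table (p = 0.0237 and 0.0454, FDR 1). Dbp80 encodes a DEAD-box RNA helicase of the family that remodels messenger RNA at the nuclear pore. Its start site (3LHet, 2409740 to 2410377) had 8.16 in LacZ and 8.48 in knockdown cells, with a fold of 0.32, and of 0.26 in the LacZ list's peak, in the authors' deposited table (p = 0.0814 and 0.179).

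Dbp80 also held the one member entry called lower. All 8 of its repeat entries lay in intron 4 of 10, between 24.4 and 31.5 kb from the TSS, and all had a fold below 0, from -0.36 to -0.03. The called one, an Invader6 copy (2440924 to 2441690) that was a peak of the LacZ list only, had 8.31 in LacZ and 7.94 in knockdown cells in the authors' deposited table (fold -0.36, p = 0.0287, FDR 1). A neighbouring Invader6 stretch at 29.2 kb had -0.03 in both lists' peaks in the authors' deposited table. The difference was not tested, and the annotation does not say whether these stretches belong to the same copy. A read from a transposon with many copies may fit several of them, and how such reads were placed was not tested.

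**Figure D2:**
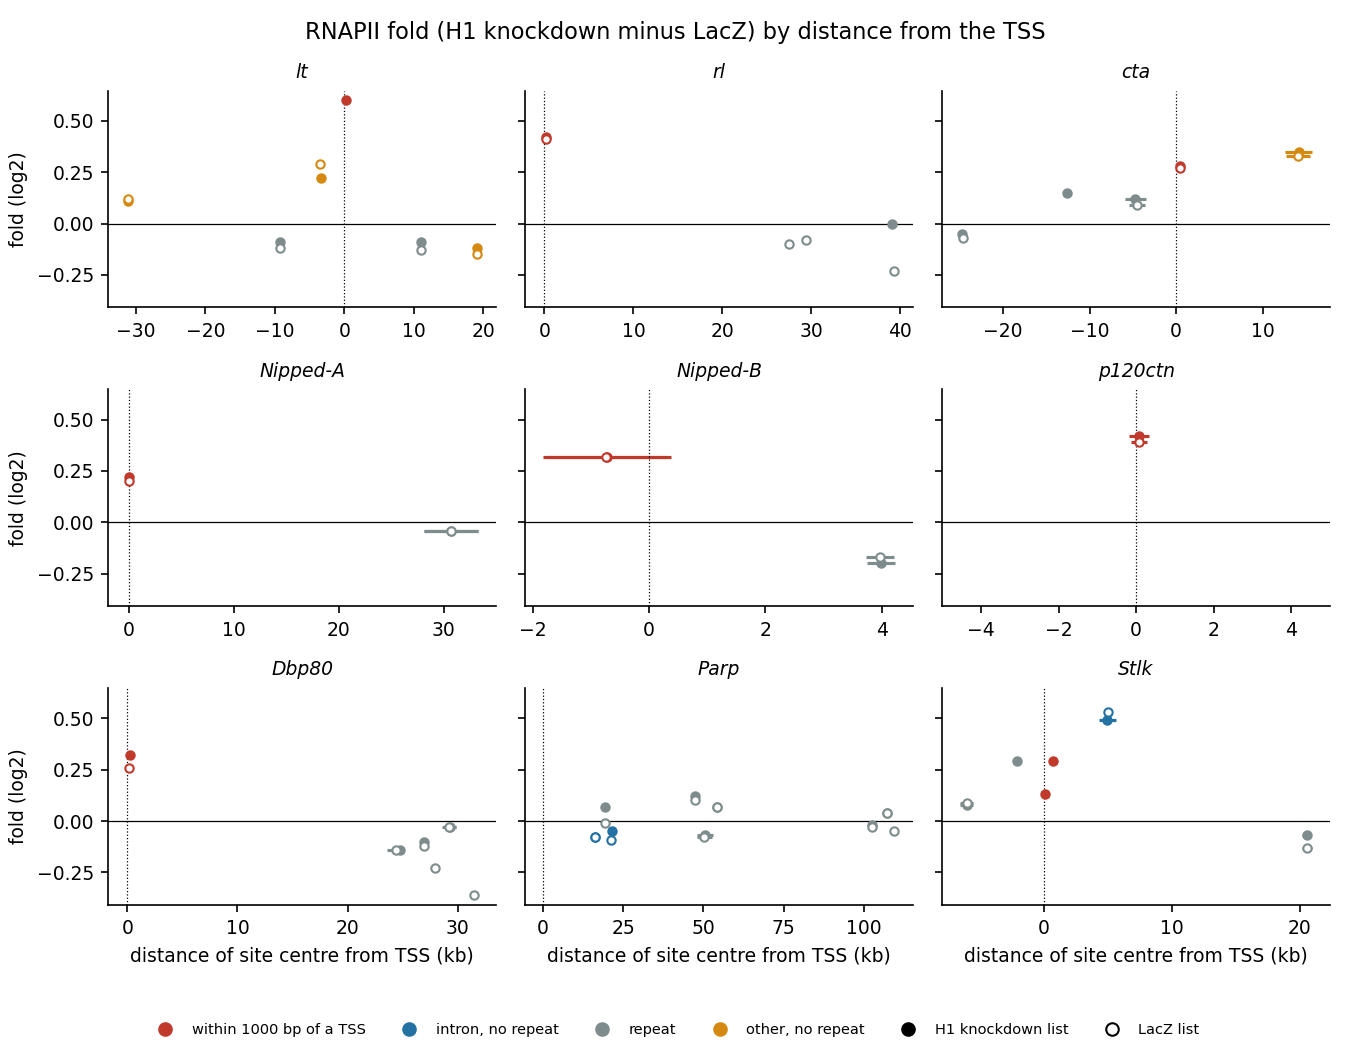
Fold (log2, H1 knockdown minus LacZ, y axis) against the distance of the site's centre from the TSS in kb (x axis, its own scale for each gene), 1 panel per gene; horizontal bars span the site, colours give the kind of site, and filled and open points are peaks of the H1 knockdown and the LacZ list. Start sites lie above the repeat sites of the same gene, except at Stlk, where intron and repeat points reach as high, and Parp has no point near 0 kb.

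In all 7 genes that had both kinds of site, the median fold at the start was above the median at repeats, which also held in 210 of the 237 other genes with both (88.6%). The difference was 0.705 at lt, 0.505 at rl and at Nipped-B, 0.42 at Dbp80, 0.25 at Nipped-A, 0.185 at cta and 0.13 at Stlk, and its median over the 237 other genes was 0.18. Among these 7 genes, cta and Stlk were the ones whose repeats had a median above 0, at 0.09 and 0.08. Sites of 1 gene are not replicates of a condition, so these differences carry no test.

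The median of 0.32 over the 15 start site entries lay above the interquartile range of all entries within 1000 bp of a TSS, 0.07 to 0.24. Of the 15, 7 were called higher (46.7%), where 4.99% of all start site entries were. As merged loci 4 of 9 were, where 6.75% of all start site loci were. The other start sites of the placed heterochromatic scaffolds and of the 1 Mb windows next to the centromeres lay in between, with a median of 0.22 over 234 entries and 14.1% called. Protein-coding genes directly next to the members did not lie below them. Over 20 such neighbours, each taken at its start site entry of highest concentration, the median was 0.355 and 11 were called higher. Whether the members differ from their neighbours was not tested. Among all start site entries the fold at lt ranked at percentile 99.7, those at rl and p120ctn at 96.7, and the Stlk site nearest its TSS at 44.9. The genes were chosen with earlier results of these data known, so these ranks are descriptions. The start sites of lt and Stlk also entered by the knockdown list only.

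Folds at start sites differed with the level of occupancy. Over all entries within 1000 bp of a TSS, the median fold by quartile of concentration was 0.24 in the lowest, then 0.19, 0.12 and 0.07 in the highest. Of the 15 member entries, 14 lay above the median of their own quartile, and the exception was the same Stlk site, at 0.13 against 0.24. Nipped-B and cta, both in the highest quartile, ranked at percentiles 98.8 and 97.7 within it, and Nipped-A, in the third, at 83.8. The part of the level in the folds was not tested further.

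**Figure D3:**
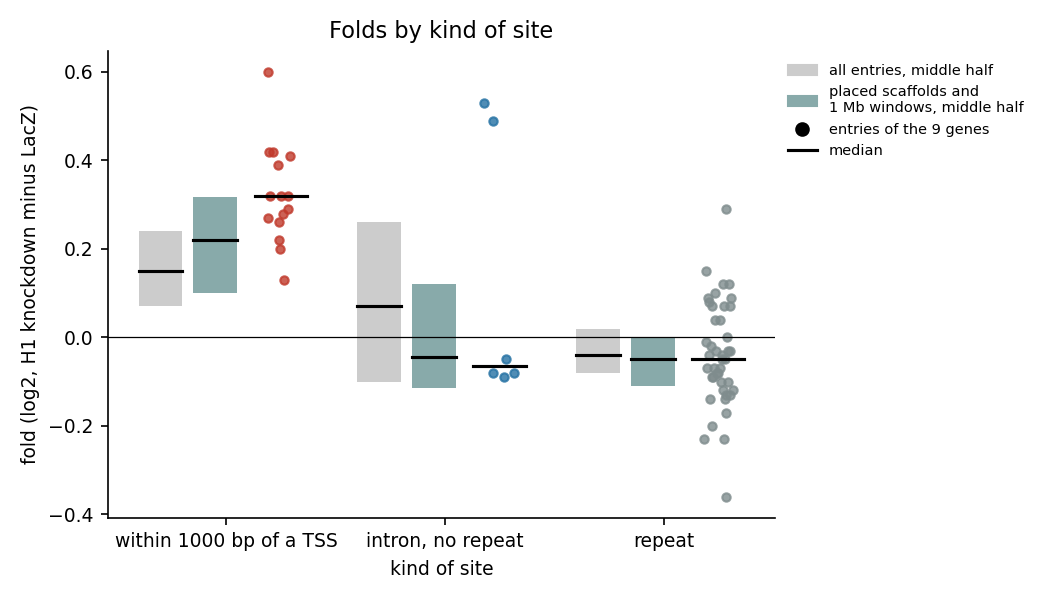
Folds (log2, H1 knockdown minus LacZ, y axis) by kind of site (x axis): bars span the interquartile range of all entries (grey) and of the other entries on placed heterochromatic scaffolds and in 1 Mb pericentric windows (green), points are entries of the 9 genes, and black lines are medians. Start site entries of the genes have a median of 0.32 against 0.15 for all, and repeat entries -0.05 against -0.04.

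Per kb of site, the order of log2 concentrations in LacZ cells at the start sites ran from Nipped-A (9.31), cta (9.11), Nipped-B (8.99) and p120ctn (8.91) to Dbp80 (8.81), rl (8.73), Stlk (8.67 and 8.48) and lt (8.37). In knockdown cells the same sites had 9.53, 9.39, 9.30 and 9.34, then 9.13, 9.16, 8.81, 8.78 and 8.97. These are peaks of the knockdown list, and in them the order shifted in 3 places after knockdown. There lt passed both Stlk sites, rl passed Dbp80, and p120ctn passed Nipped-B. The shifts of rl and p120ctn depended on the peak's bounds. In the LacZ list's peaks, p120ctn was above Nipped-B already in LacZ cells (9.10 against 9.03). In those peaks rl stayed below Dbp80 in knockdown cells (9.39 against 9.40). The start sites of lt and Stlk had no peak of the LacZ list. With no value per library, it is not known which neighbours in this order differ beyond their spread.

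**Figure D4:**
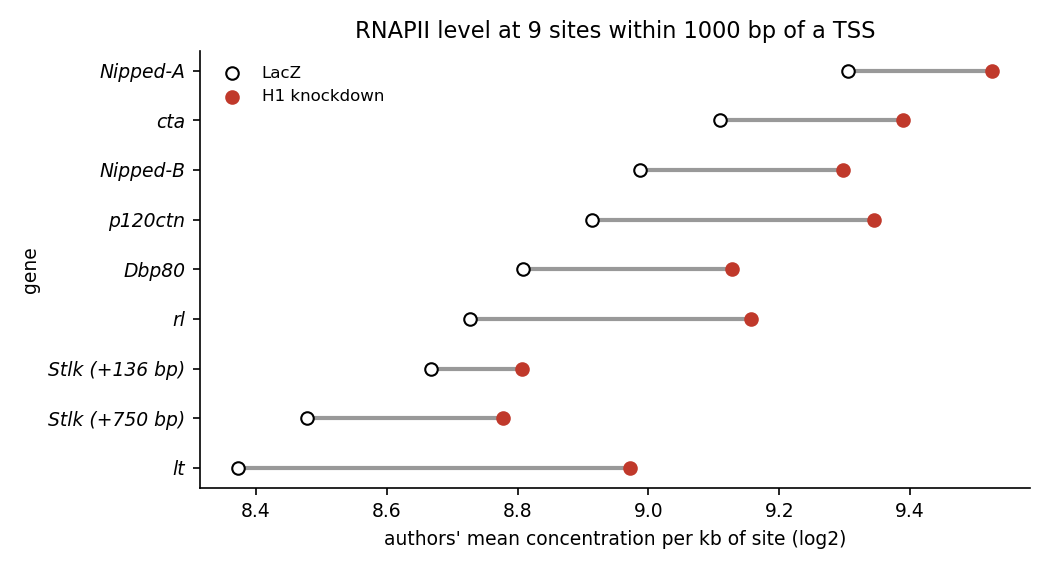
The authors' mean log2 concentration per kb of site (x axis, not starting at 0) in LacZ (open) and H1 knockdown cells (red) at the 9 start site peaks of the knockdown list (y axis, ordered by the LacZ level); lines join the conditions. Every site lies further right in knockdown cells, with folds of 0.60 at lt and 0.13 at the Stlk site nearest the TSS.

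Intron sites without a repeat were few and split by gene. The 4 Parp entries lay below 0 and both Stlk entries at 0.49 and 0.53, so their joint median of -0.065 describes neither gene. Of these 6, both Stlk entries were called higher, where 13.3% of all 715 such entries were; the median over those 715 was 0.07. With repeats included, the 32 intron entries beyond 1000 bp of a TSS had a median of -0.08, with 7 above 0 (21.9%), beside a median of -0.03 and 35.6% above 0 over all 3572 such entries. Entries of the remaining kinds, 6 at lt and 2 at cta, had a median of 0.17, and the 2 called higher were both at the wide site of cta, where 6.32% of all 554 such entries were.

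Repeats made up 59.7% of the members' entries and 34.1% of all entries. Their median of -0.05 stood beside -0.04 for all 4890 repeat entries and -0.05 for the other repeats on the placed scaffolds and in the pericentric windows. None of the 43 was called higher, where 0.695% of all repeat entries were, and the Invader6 copy of Dbp80 was the 1 called lower, where 0.102% were. Intron repeats of the genes had a median of -0.08 over 26 entries of 6 genes, and repeats between genes -0.02 over 17 entries of 4 genes. Over the whole table both kinds had a median of -0.04, from 2857 and 2033 entries. Gypsy-type elements accounted for 24 of the 43 entries, Jockey-type LINE elements for 10, and Copia, Pao, P and the composite CIRCE for the others.

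Individual transposons at the genes could be set beside copies of the same name elsewhere. Of 16 repeat names, 12 had at least 10 entries away from the 9 genes. The members' median lay inside the interquartile range of those copies for 6 names, below it for 5 and above it for 1. By definition such a range leaves out as many values as it holds, so this split is not a result about the members. The names outside it are listed as a description, each from 1 or 2 entries of 1 locus. HMSBEAGLE was the one above, with 0.105 next to cta against a median of -0.07 over 69 other entries. BURDOCK in Nipped-B (-0.185 against -0.09 over 89) and ROO next to lt (-0.105 against -0.04 over 42) were lower than most copies elsewhere. So were Copia in Nipped-A (-0.04 against 0.02 over 192), the MDG3 terminal repeat next to cta (0.15 against 0.255 over 22) and the DM176 terminal repeat in rl (-0.115 against -0.02 over 125). The fold at the DM176 terminal repeat in rl depended on the peak's bounds: the knockdown list's peak gave 0.00 and the LacZ list's shorter peak -0.23 in the authors' deposited table.

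**Figure D5:**
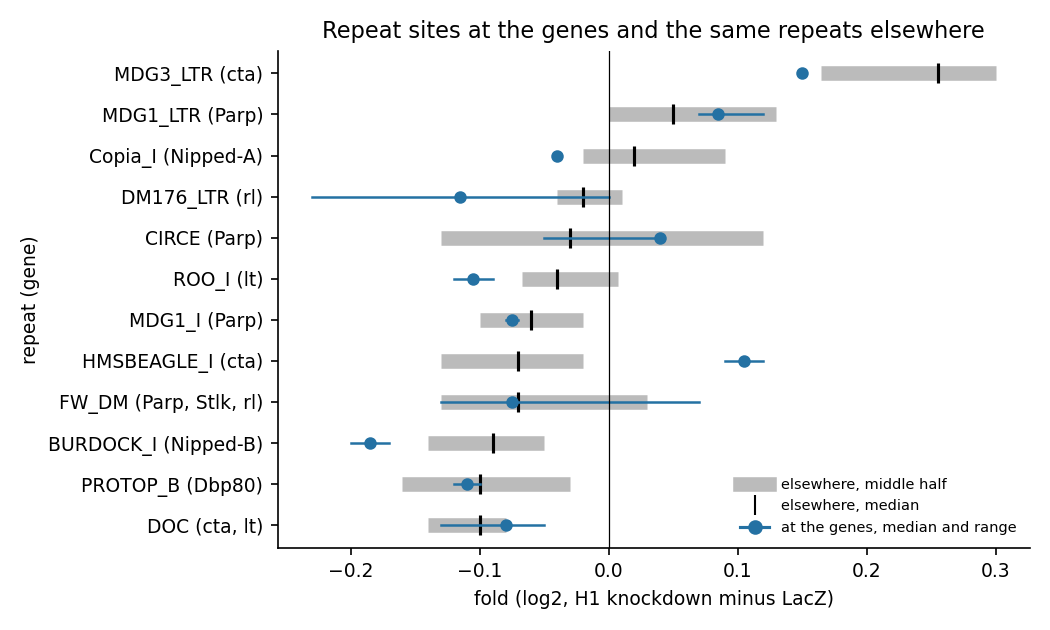
Fold (log2, H1 knockdown minus LacZ, x axis) for the 12 repeat names with at least 10 entries elsewhere (y axis, with the genes that hold them): grey bars and black ticks give the interquartile range and median elsewhere, blue points and lines the median and range at the genes. Of the blue points, 6 lie on their grey bar, and HMSBEAGLE next to cta lies to its right.

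The peak lists, called by the authors on libraries pooled per condition, were also compared. Of the 41 member loci, 31 held peaks of both lists. The 5 of the knockdown list only were the start site of lt, both start sites of Stlk, its OSVALDO copy and the MDG3 terminal repeat upstream of cta, where 14.9% of all merged loci were of that list only. The 5 of the LacZ list only were all repeats. They were 2 in introns of rl, 2 in intron 4 of Dbp80 and 1 CIRCE copy 109.5 kb from the TSS of Parp. Of all merged loci, 5.99% were of that list only. Pooled lists have no replicate check, and a peak missing from 1 list is not an absence of polymerase. A site of 1 list only entered through that list's condition, which favours a fold in its direction. This holds for the start site of lt and for the called Invader6 copy of Dbp80.

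Other genes in or at the edge of pericentric heterochromatin were described from a list of 25. Of these, 22 had an entry and 15 an entry within 1000 bp of a TSS. All 15 genes had a start site median above 0, where 92.9% of all start site entries were above 0, from 0.10 at the ribosomal protein gene RpL5 to 0.58 at CG17698, with a median over genes of 0.25. At an unadjusted p under 0.05, 7 of 31 start site entries were called higher, in 4 genes, where 4.99% of all start site entries and 14.1% of those on the placed scaffolds and in the pericentric windows were. The smallest p values in the authors' deposited table were those of CG17698 (fold 0.58, p = 0.00641), the transporter gene MFS17 (0.43, p = 0.00801), d4, which encodes a PHD finger protein (0.45, p = 0.0246), and Set1, the H3K4 methyltransferase gene (0.45, p = 0.0294). Next in the authors' deposited table came the histone kinase gene Haspin (0.27, p = 0.0787) and the initiation factor gene eIF4B (0.29, p = 0.117), each of the 6 with an FDR of 1. A second start site assigned to d4 had a fold of -0.09 in the authors' deposited table. The 199 repeat entries of the list had a median of -0.04, and in 11 of the 12 genes with both kinds of site the start site median was above the repeat median; uex, with repeats at 0.36, was the exception.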

How the data were processed

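The submitters' processing notes name the dm3 build and Bowtie2 (2.2.2), MACS (1.4.2), DESeq2 and DiffBind (2.10.0), without roles; the peak names say MACS2. Settings are not given in the sources used here. Fixation lasted 10 minutes in 1.8% formaldehyde, per the labels' protocols. The deposited table gives log2 mean concentrations, their difference, and the authors' p-value and FDR; how libraries were scaled is not given, so a fold of 0 is no fixed reference. The deposited fold enrichment ratio was used only at Nipped-A. The −log10 of p and q, and peak score were not used, except q as a stricter peak threshold (−log10 q of at least 3).

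Entries of both peak lists were classed by distance to the TSS (1000 bp), then repeat annotation, then intron, and merged at 1 bp of overlap; concentrations per kb subtract log2 of the width. The 1 Mb windows run from the last site of 2L, 3L and X, and from the first base of 2R and 3R. The sites of Nipped-A start at 1105256 and 1138135 on 2R, beyond that window. The planned fit across libraries was not run, for want of values per library. The lists, genes and rule for named genes (all 9, and up to 6 listed genes by p) were chosen with earlier results of these data known. Cht3 was read as Cht10, its name in a Release 6 table used for names and gene order only. The code was tested on simulated data. Python 3.11.15, pandas 2.3.3, numpy 2.4.6 and matplotlib 3.10.9 were used. No sequence is shown.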

Additional observations from a re-analysis of the deposited data

How the results depend on the processing

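A median was taken as moved when it changed by more than 0.0244, the SD of the difference between both lists' entries at 6083 loci. The start site median of 0.32 ran from 0.29 to 0.32 over 18 alternatives. It was 0.295 in the LacZ list's entries and 0.29 without rl, Nipped-B or p120ctn. Its sign could not turn, since all 15 entries lay above 0 and no alternative added an entry. The repeat median of -0.05 stayed below 0 in all 18, with -0.025 in the knockdown list's and -0.08 in the LacZ list's entries, -0.08 without intergenic sites and -0.085 without Parp. The intron median of -0.065 turned to 0.215 with 1 median per gene and to 0.51 without Parp, which leaves Stlk alone. Of 11 entries called higher and 1 lower, 0 and 0 remained at an FDR of 0.05 and 0 and 0 at 0.1; as merged loci there were 6 higher. Loci of the LacZ list only were 3 in place of 5 at a −log10 q of at least 3. The alternatives by list, by gene, without intergenic sites and with all intron sites were chosen after seeing the data. Replicates could not be left out, since no value per library is used here. No paired analysis was possible because the columns hold 1 mean per condition. The depth is unknown, so no counting limit can be given.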

Other observations

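The protein-coding genes next to the 9 genes were examined in the same way, with 2 neighbours on each side taken from the Release 6 gene order. Leaving out members, 26 neighbours were found, of which 20 had an entry within 1000 bp of a TSS. The entries of CG40439 and CG46302 overlap at 1 locus on 2L, so these are not 20 separate sites. Of the 20 genes, d4, eIF4B, RpL38, Yeti, vtd and Gprk1 were also in the list of 25 genes described above. At the entry of highest concentration, all 20 had a fold above 0, as did 92.9% of all start site entries, from 0.19 at Atf6, a stress-response transcription factor gene, to 0.52 at Tim17b, which encodes a mitochondrial import subunit, with a median of 0.355. The authors' unadjusted calls marked 11 of the 20 as higher, each of the 11 with an FDR of 1. Of all start site entries, 4.99% were called higher. The share was 14.1% on the placed scaffolds and in the pericentric windows, members left out. As merged loci these shares were 6.75% and 17.7%. The members' own start site entries had a median of 0.32, and 7 of 15 were called higher, or 4 of 9 merged loci. Beside Parp, which had no start site of its own in the table, Alg-2 had a fold of 0.41 (7.77 in LacZ and 8.19 in knockdown cells, p = 0.0364) and Tim17b 0.52 (8.86 and 9.37, p = 0.00524) in the authors' deposited table. The neighbours of Nipped-B, conu and CG12547 on one side and CG17883 and CG17486 on the other, had 0.43, 0.43, 0.35 and 0.34 in the authors' deposited table. Beyond Nipped-A, sxc, which encodes the O-GlcNAc transferase, had 0.46 (p = 0.0219) in the authors' deposited table. CG46302 and eIF4B lie on another arm or scaffold in dm3 than the gene they neighbour in Release 6.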
